A study of Caenorhabditis elegans with 2 samples.

Results

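The alpha and beta tubulin genes of Caenorhabditis elegans were examined for chromatin occupied by CEBP-1, a C/EBP protein that binds DNA through a bZIP domain. The set comprised 9 of the 19973 annotated protein-coding genes, taken by symbol. They were tba-1, tba-2, tba-4, tbb-1 and tbb-2, which are broadly expressed and are called general tubulins here, mec-7, mec-12 and tbb-4, which serve particular classes of neuron, and tbb-6, which belongs to neither class. The genes were chosen with the signal values and ranks of their peaks already known, and count as selected on those values, so their counts and signal values are a description and no test was made on them. The classes rest on textbook expression and not on these data.

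Chromatin immunoprecipitation with sequencing was performed on whole, mixed sex young adults collected 63 hours after release from starvation arrest as L1 larvae. The strain was OP563, which carries the mutation unc-119(tm4063) on chromosome III and the transgene wgIs563, from which CEBP-1 is made with GFP and FLAG at its C terminus. Chromatin was sheared by sonication and precipitated with an antibody to GFP. The labels describe 2 biological replicates, numbered 3 and 7, in 1 group of this 1 strain. No untagged strain was analysed here, so signal that depends on tagged CEBP-1 and signal that does not cannot be told apart. In whole animals the tissue that gives a peak is not resolved, and a site bound in few neurons cannot be told apart from a weakly bound site.

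Microtubules are hollow polymers of alpha and beta tubulin heterodimers, and animals carry several genes for each subunit that differ in where and when they are used. In C. elegans, tba-1, tba-2, tbb-1 and tbb-2 supply, among other structures, the mitotic spindle of the embryo. The alpha tubulin MEC-12 and the beta tubulin MEC-7 build the large microtubules of the touch receptor neurons, and TBB-4 is found in ciliated sensory neurons. CEBP-1 acts downstream of the DLK-1 and PMK-3 kinases in axon regrowth and synapse formation, and DLK-1 signalling responds to the state of axonal microtubules.

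The deposited peaks comprised a list of 30000 summits for each replicate and a list of 30000 summits called on both replicates pooled. An optimal list of 5982 peaks was thresholded by the authors on reproducibility between replicates (the irreproducible discovery rate, IDR). It equalled the top 5982 pooled peaks by signal, so a peak in it need not have been listed in each replicate. Of its peaks, 3599 stood among the top 5982 summits of both replicates. Each peak carries the signal value of the authors' peak caller, relative to a control. It has no absolute unit and is used here only to rank and describe peaks within a list. In the optimal list its median was 299 and its range 148 to 20103. Replicates were compared by relative signal, which is the signal of the strongest summit within 100 bp of the optimal summit divided by a median. That median was taken in the same replicate over the optimal peaks matched within 100 bp. It was 204 over 5723 peaks in replicate 3 and 112 over 5499 in replicate 7. Read numbers do not appear in the lists, and sequencing depth is therefore unknown.

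A gene's window ran from 5 kb upstream of its 5′ end to its 3′ end. Of the 9 tubulin genes, 6 had the summit of at least 1 optimal peak in the window, against 30.5% of all protein-coding genes (6097 of 19973). The 6 were tba-1, tba-2, tbb-1, tbb-2, mec-12 and tbb-6. By class, 4 of 5 general tubulins and 1 of 3 neuron-specific tubulins had a peak. The same 6 genes had a summit in the promoter, defined as 1000 bp upstream to 200 bp downstream of the 5′ end, against 14.9% of protein-coding genes. Among genes with a peak, the median of the strongest signal was 3198 for the 6 tubulins, 3198 for the 4 general tubulins and 425 for all 6097 genes. The 4 general tubulins ranged from 1262 to 9916, and the only neuron-specific tubulin with an optimal peak, mec-12, had 539. Windows were of similar length, with a median of 6838 bp for the tubulins and 7027 bp for protein-coding genes.

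**Figure D1:**
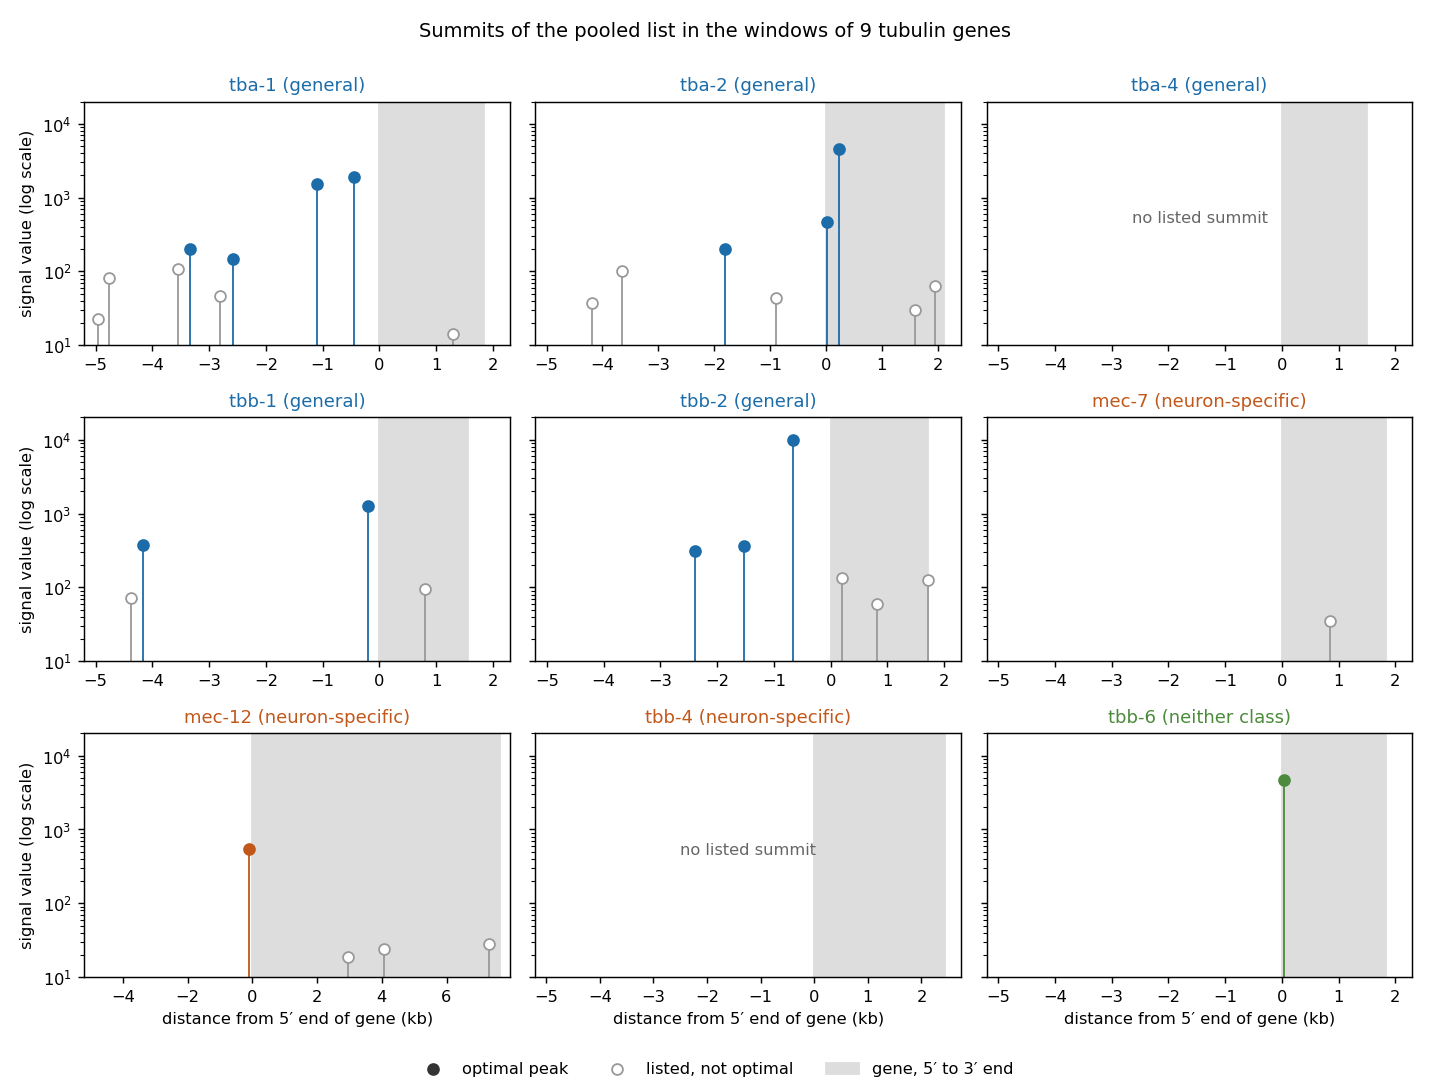
Summits of the pooled list in the windows of the 9 tubulin genes, by distance from the gene's 5′ end (x axis, kb, negative upstream) and signal value (y axis, log scale), with the gene shaded. Filled circles are optimal peaks and open circles are pooled summits outside the optimal list. The general genes tba-1, tba-2, tbb-1 and tbb-2 hold 12 of the 14 filled summits, mec-12 and tbb-6 hold 1 each, and tba-4, mec-7 and tbb-4 hold none.

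The beta tubulin gene tbb-2 (WBGene00006537, III:4015910-4017627, minus strand, ce11) held the strongest tubulin peak. Its summit lay 660 bp upstream of the 5′ end, inside an exon of the non-coding gene C36E8.10 on the opposite strand, and the signal of 9916 ranked 4 among all 5982 optimal peaks. Signal was 6147 in replicate 3 and 3768 in replicate 7, and the summit ranked 4 in both replicate lists. Relative signal was 30.2 in replicate 3 and 33.7 in replicate 7, with a mean of 32.0 ± 2.50 (SD, n = 2). Of the protein-coding genes, 3 (0.0150%) had a stronger peak in their window. The peak was 877 bp wide, and 5.42% of optimal peaks were wider. The 201 bases around this summit, III:4018187-4018387, are shown because they hold the sequence TTTCGCAA at 2 places, given in capitals. They were read from the ce11 genome sequence (WBcel235) on the strand of the gene, 5′ to 3′.
tbb-2: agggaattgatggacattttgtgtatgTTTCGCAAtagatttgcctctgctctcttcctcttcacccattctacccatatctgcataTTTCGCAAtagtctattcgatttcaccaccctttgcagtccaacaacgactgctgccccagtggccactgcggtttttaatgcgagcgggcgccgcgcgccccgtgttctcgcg

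TTTCGCAA is the other strand of TTGCGAAA, a sequence found in an earlier search over all 8-letter sequences at these summits and therefore not an independent choice. The copy nearest the tbb-2 summit was centred 9 bp from it and the second 69 bp away. Further upstream, tbb-2 had weaker optimal summits at 1531 bp (signal 364, rank 2378) and 2388 bp (signal 315, rank 2832). Their relative signal was 1.25 ± 0.382 and 0.929 ± 0.495 (SD, n = 2 each), close to the median optimal peak. Both lay in the promoter of snpc-3.4, which runs the opposite way, and the farther summit was 22 bp from the 5′ end of that gene.

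The other broadly expressed beta tubulin, tbb-1 (WBGene00006536, III:10740868-10742432, minus strand), had its strongest summit 195 bp upstream of the 5′ end. The signal was 1262 in the optimal list, rank 421, with 838 (rank 412) in replicate 3 and 429 (rank 489) in replicate 7. Relative signal was 4.12 in replicate 3 and 3.84 in replicate 7 (mean 3.98 ± 0.198, SD, n = 2), below both replicate values of tbb-2. A stronger peak in the window was present for 4.01% of protein-coding genes. The summit lay between tbb-1 and rib-2, a heparan sulphate synthesis gene that runs the opposite way, and was slightly nearer to rib-2 (183 bp), so the peak stood in both promoters. The bases around the summit, III:10742527-10742727, are shown because they lack TTTCGCAA and hold TGAGTCA, the other strand of the AP-1 sequence TGACTCA, in capitals 9 bp from the summit.
tbb-1: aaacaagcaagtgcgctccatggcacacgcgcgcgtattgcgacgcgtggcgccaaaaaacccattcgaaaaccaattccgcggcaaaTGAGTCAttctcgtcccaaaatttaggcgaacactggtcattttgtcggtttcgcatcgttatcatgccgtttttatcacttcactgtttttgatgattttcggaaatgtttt

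The second optimal summit of tbb-1, 4170 bp upstream, had a signal of 373 (rank 2317) and lay in the overlapping 3′ UTRs of rib-2 and ran-1, the gene of the Ran GTPase. Its replicates differed in relative signal, 0.698 in replicate 3 and 2.23 in replicate 7 (mean 1.47 ± 1.08, SD, n = 2). This was the upstream summit closest to the edge of a window from inside. The nearest one outside any tubulin window at that edge was also of tbb-1, 5405 bp upstream, with a signal of 1046 (rank 570). At the 3′ end, optimal summits stood just outside the windows of tba-2 (56 bp beyond, signal 244), tbb-1 (83 bp beyond, signal 164) and tbb-2 (190 bp beyond, signal 397).

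The alpha tubulin gene tba-2 (WBGene00006529, I:12964674-12966795, minus strand) had the strongest alpha tubulin peak. Its summit lay 235 bp downstream of the 5′ end, in an intron of the gene and just past the downstream edge of the promoter. The signal was 4512, rank 39, with 2680 (rank 40) in replicate 3 and 1806 (rank 35) in replicate 7. Relative signal was 13.2 in replicate 3 and 16.2 in replicate 7 (mean 14.7 ± 2.12, SD, n = 2). A stronger peak was present in the windows of 0.371% of protein-coding genes. The interval was 1036 bp wide, and 3.79% of optimal peaks were wider. A second optimal summit in the same interval lay 17 bp downstream of the 5′ end, in the 5′ UTR. It had a signal of 470 (rank 1764) and a relative signal of 1.90 ± 0.463 (SD, n = 2). The promoter call of tba-2 rested on this weaker summit alone. The weakest summit of tba-2, 1810 bp upstream with a signal of 199.6 (rank 4491), lay in the shared promoters of eif-6, a translation initiation factor, and pbs-2, a proteasome subunit. Its relative signal was 0.630 ± 0.0965 (SD, n = 2).

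The alpha tubulin gene tba-1 (WBGene00006528, I:9785781-9787624, minus strand) had 4 optimal summits upstream. The strongest, 451 bp upstream, had a signal of 1884 (rank 209), with 1038 (rank 265) in replicate 3 and 846 (rank 140) in replicate 7. Relative signal was 5.10 in replicate 3 and 7.57 in replicate 7 (mean 6.34 ± 1.75, SD, n = 2), and 2.10% of protein-coding genes had a stronger peak. This summit stood in the promoters of both tba-1 and cox-5B, a cytochrome c oxidase subunit gene that runs the opposite way. The next summit, 1096 bp upstream, was 5 bp from the 5′ end of cox-5B, with a signal of 1507 (rank 304) and a relative signal of 4.86 ± 0.0195 (SD, n = 2). The remaining summits of tba-1 lay 2585 and 3344 bp upstream, with signals of 149.6 (rank 5900) and 200.7 (rank 4459), and were nearest to cox-5B. The summit at 3344 bp was matched in replicate 3 alone.

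The general alpha tubulin tba-4 (WBGene00006530, II:10918706-10920211, plus strand), which is expressed broadly in somatic tissue, had no optimal peak. The pooled list and the list of replicate 3 held no summit in its window at all. In the list of replicate 7, a summit 236 bp upstream of the 5′ end had a signal of 188, rank 1622, which is 1.68 times that replicate's median over optimal peaks. Its other entry there, 37 bp upstream, had 38.8 at rank 11743. The call for tba-4 therefore differed between the replicates. Its 5′ end lay in a stretch of 37658 bp with no pooled summit, background entries included. Such stretches of 10 kb or more covered 71.6% of the genome and held the 5′ ends of 71.3% of protein-coding genes. Of all 19973 protein-coding genes, 56.2% had no pooled summit in the window. The absence of an entry there is not a measured low signal.

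Among the neuron-specific genes, mec-12 (WBGene00003175, III:3131574-3139234, minus strand), the alpha tubulin of touch receptor neurons, had 1 optimal summit, 108 bp upstream of the 5′ end. The signal was 539, rank 1472, and 12.3% of protein-coding genes had a stronger peak. The lists of the replicates differed on it, and an absent entry is not a measured low signal. In replicate 7 the summit had a signal of 251, rank 1069, and a relative signal of 2.25, whereas replicate 3 listed no summit within 100 bp. The best entry for mec-12 in replicate 3 had a signal of 18.1 at rank 23206, inside the gene, and its 5′ end lay in a stretch of 30552 bp with no entry of that list. The peak was 308 bp wide, narrower than 68.0% of optimal peaks. The bases around it, III:3139242-3139442, are shown for comparison with tbb-2. They hold TTTCGCAA in capitals, centred 48 bp upstream of the pooled summit, and, 88 bp downstream, AGACGCAG, the second sequence of the earlier search.
mec-12: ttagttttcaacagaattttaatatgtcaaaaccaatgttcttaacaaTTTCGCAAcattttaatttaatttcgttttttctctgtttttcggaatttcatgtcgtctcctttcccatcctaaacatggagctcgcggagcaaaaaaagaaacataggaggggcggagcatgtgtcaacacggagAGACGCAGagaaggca

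The summit that replicate 7 placed at III:3139389 fell inside this TTTCGCAA copy (III:3139387-3139394). The beta tubulin of the same neurons, mec-7 (WBGene00003171, X:7774856-7776689, minus strand), had no optimal peak. Its best pooled entry, 854 bp downstream of the 5′ end, had a signal of 35.1 at rank 20570, replicate 3 gave 13.5 at rank 26380, and replicate 7 listed none. An optimal summit with a signal of 298 (rank 2996) stood 947 bp beyond the 3′ end of mec-7, outside the window.

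The beta tubulin of ciliated neurons, tbb-4 (WBGene00006538, X:9434452-9436893, minus strand), had no pooled summit in its window, and its 5′ end lay in a pooled stretch of 11263 bp without an entry. Both replicates nevertheless listed a summit at the far edge of the window. In replicate 3 it stood 4831 bp upstream with a signal of 294 (rank 1981, 1.44 times the median), and in replicate 7 it stood 4803 bp upstream with a signal of 93.3 (rank 3861, 0.835 times the median). These positions were 153 and 125 bp from the 5′ end of another gene, memb-1, and 764 and 792 bp from the nearest pooled summit. Replicate 7 alone also listed weaker entries nearer to tbb-4, 206 bp upstream of its 5′ end (signal 54.3, rank 7622) and 813 bp inside the gene (signal 37.6, rank 12206), both below its top 5982 summits. Replicate summits without a pooled counterpart were also found elsewhere: 290 (4.85%) of the top 5982 summits of replicate 3 and 582 (9.75%) of the 5970 nuclear ones of replicate 7 had no pooled summit within 500 bp.

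The remaining beta tubulin, tbb-6 (WBGene00006539, V:12261531-12263368, plus strand), is known as a gene whose reporter is switched on by mitochondrial stress through PMK-3, a p38 kinase. It had 1 listed summit in its window in every list, 39 bp downstream of the 5′ end in the 5′ UTR. The signal was 4639, rank 36, with 2522 (rank 46) in replicate 3 and 2119 (rank 19) in replicate 7. Relative signal was 12.4 in replicate 3 and 19.0 in replicate 7 (mean 15.7 ± 4.65, SD, n = 2), which overlapped the values of tba-2. A stronger peak was present for 0.345% of protein-coding genes. The 30 bases at this summit, V:12261564-12261593, are shown because both copies of TTTCGCAA, in capitals, lie in them, the first at the summit and the second 16 bp away.
tbb-6: aaTTTCGCAAtagactataTTTCGCAAtag

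**Figure D2:**
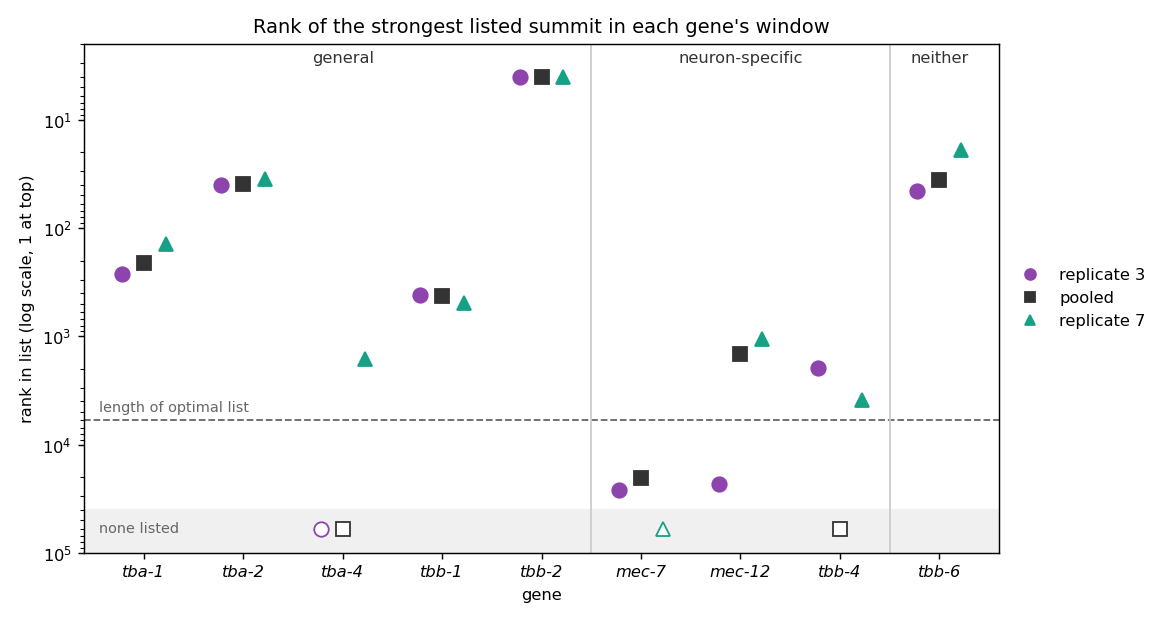
Rank of the strongest listed summit in the window of each gene (y axis, log scale with rank 1 at the top) in replicate 3 (circles), the pooled list (squares) and replicate 7 (triangles). The dashed line marks the length of the optimal list, 5982, and open symbols mark lists with no summit in the window. Ranks of tba-1, tba-2, tbb-1, tbb-2 and tbb-6 lie close together in the lists, whereas those of tba-4, mec-12 and tbb-4 do not.

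In order of mean relative signal the genes were tbb-2, tbb-6, tba-2, tba-1, tbb-1 and mec-12. The order of tbb-6 and tba-2 was not resolved, since tba-2 ranked above tbb-6 in replicate 3 and below it in replicate 7. For the other neighbours in this order, the values of the replicates did not overlap, mec-12 being measured in replicate 7 alone. Of the 14 optimal summits, 12 were matched in both replicates, 11 lay upstream of the gene and 3 inside it. For 8 of the 14 the nearest 5′ end belonged to another protein-coding gene, so they cannot be assigned to the tubulin gene by distance. Among protein-coding genes, the strongest summits of tba-2, tbb-2, tba-1, mec-12 and tbb-6 were nearest to the tubulin gene itself. That of tbb-1 was nearest to rib-2. Non-coding genes were left out of these distances, and the strongest tbb-2 summit lay inside an exon of the non-coding gene C36E8.10.

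**Figure D3:**
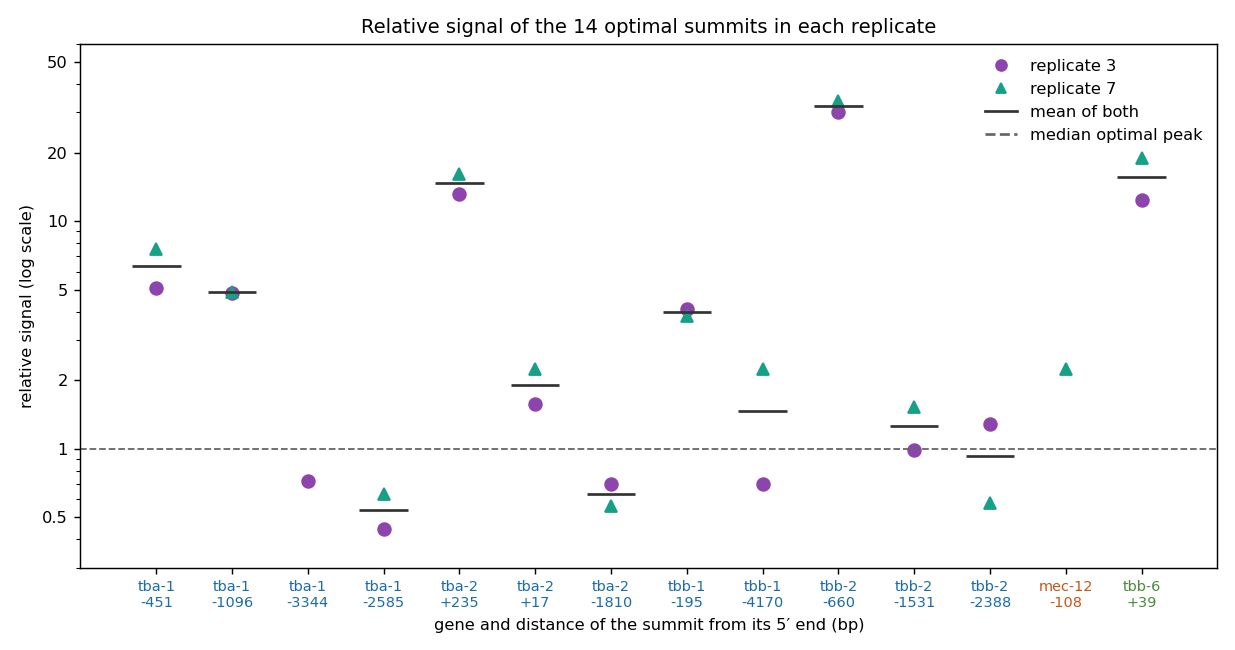
Relative signal (y axis, log scale) of the 14 optimal summits in replicate 3 (circles) and replicate 7 (triangles), with the mean of both as a bar and the median optimal peak as a dashed line. Summits are named by gene and by distance from its 5′ end in bp. The strongest summits of tbb-2, tbb-6 and tba-2 have means of 32.0, 15.7 and 14.7, and 4 of the other summits have a mean below 1 or a lone value below 1.

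**Figure D4:**
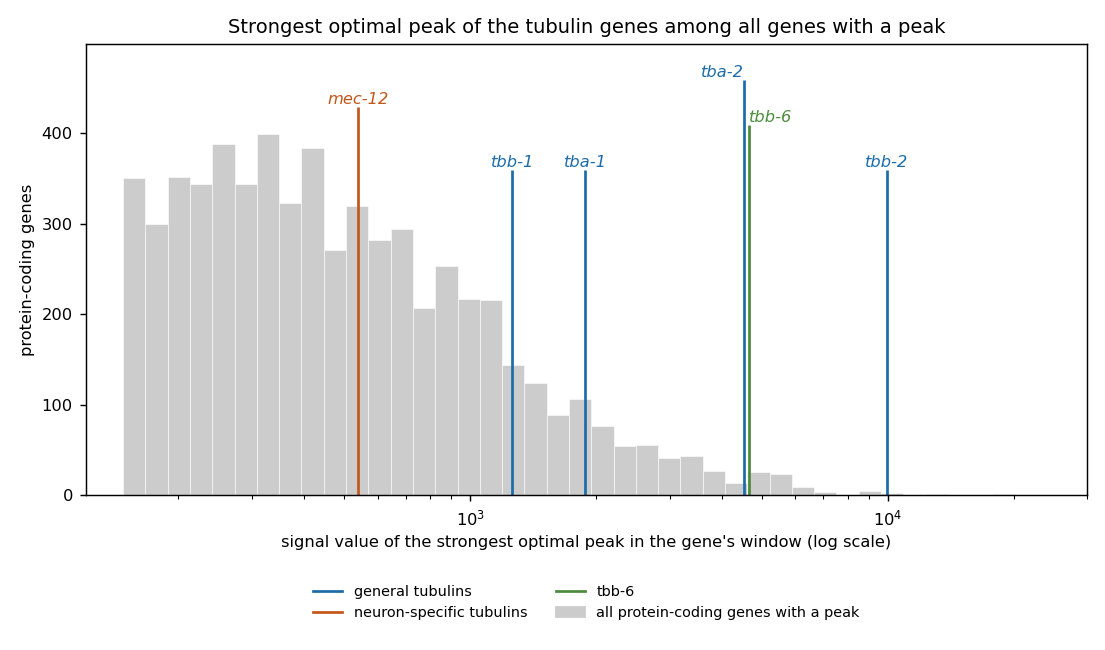
Number of protein-coding genes (y axis) by the signal value of the strongest optimal peak in the window (x axis, log scale), for the 6097 genes with a peak, with the 6 tubulin genes as lines. The median gene has 425. The line of mec-12 stands at 539 and that of tbb-2 at 9916.

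Calls for the classes were compared between the replicates by taking the top 5982 summits of each. Replicate 3 gave 6 tubulin genes, against 31.3% of protein-coding genes, and replicate 7 gave 8, against 31.1%. Replicate 3 alone held all of the 6 but mec-12, and added tbb-4. Replicate 7 held all 6 and added tba-4 and tbb-4. In both replicates the tbb-4 summit counted was the one at the far edge of its window, nearest to memb-1. Among general tubulins the count was thus 4 in replicate 3 and 5 in replicate 7, and among neuron-specific tubulins it was 1 and 2. With optimal peaks that stood among the top of both replicates, a choice made after seeing the data, 4 general tubulins, 0 neuron-specific tubulins and tbb-6 had a peak, which is 5 of the 9 genes against 22.6% of protein-coding genes. That count of 0 comes from the optimal list, which holds no tbb-4 summit, and from mec-12, whose summit replicate 3 did not list.

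Sequence at the summits was not used to select the genes. C/EBP proteins bind as dimers to sites such as TTGCGCAA, TTGCGTAA and TTACGTAA. None of these 3 was found on either strand within 50 bp of any of the 14 tubulin summits, and 1.27% of all optimal windows held one. TTGCGAAA was found in 4 windows, at the strongest summits of tba-1 (34 bp from the summit), tba-2 (12 bp), tbb-2 and tbb-6, against 14.9% of all optimal windows. All 4 belong to the 6 tubulin summits in the strongest 10% of the optimal list (598 peaks), in which 52.3% of windows held the sequence. The 4 of 6 is therefore near the share among peaks of like strength. The other 8 tubulin windows, all outside the strongest 10%, held none. The sequence was also in few of all optimal windows (14.9%, the strongest 10% included), so this count says little about the 8. Within 100 bp, mec-12 was added, giving 5 windows against 16.6% of all optimal windows.

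At least 2 copies of TTGCGAAA within 50 bp were found at tbb-6, and within 100 bp also at tbb-2. Among all optimal windows, 0.552% held 2 or more copies within 50 bp and 1.00% within 100 bp, and in the strongest 10% these shares were 3.68% and 5.18%. In the printed sequences each copy at tbb-2 and tbb-6 is followed by tag, which gives the longer sequence TTTCGCAATAG, whereas the copy at mec-12 is not. This 11-letter form was chosen after seeing the tubulin sequences. It made up 48 of the 924 TTGCGAAA matches within 50 bp of optimal summits (5.19%), and the copies at tba-1 and tba-2 did not have it. It was present in 0.769% of all optimal windows and in 4.01% of the strongest 10%, to which the strongest summits of tbb-2 and tbb-6 belong. The AP-1 sequence TGACTCA was found within 50 bp at tba-2 and tbb-1, against 1.81% of all optimal windows and 3.85% of the strongest 10%. GATA sequences (TGATAA or AGATAA) were found at 1 tubulin summit, against 15.1% of all windows. The remaining sequences were found at none of the 14 summits within 50 bp, and their shares of all optimal windows were also low: 0.819% for the C/EBP-ATF composite TGATGCAA, 1.00% for the CRE TGACGTCA, 5.52% for the E-box CACGTG, 4.88% for the repeat GAGAGAGA and 6.69% for AGACGCAG.

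Identity between the encoded proteins was computed as a description. The genes were chosen as alpha and beta tubulins, so likeness within a subunit follows from the choice. The 4 beta tubulins other than TBB-6 shared 88.7% to 98.2% of aligned residues, with TBB-1 and TBB-2 at 98.2%. Relative signal was 3.98 ± 0.198 at tbb-1 and 32.0 ± 2.50 at tbb-2 (SD, n = 2 each). MEC-7 and TBB-4, whose genes had no optimal peak, were 92.5% identical. TBB-6 stood apart, at 59.3% identity to both TBB-1 and TBB-2, 57.9% to MEC-7 and 57.4% to TBB-4. Among alpha tubulins, TBA-1 and TBA-2 were 97.5% identical, and TBA-4, whose gene had no optimal peak, was 96.4% identical to TBA-1 and 96.0% to TBA-2. MEC-12 was 86.8% to 87.9% identical to these. Nucleotide identity between the coding sequences was not computed. The handling of reads that fit more than 1 gene is not given in the sources used here. Whether tubulin genes shared reads was not tested. None of the 14 optimal summits lay in a tubulin coding exon. The intervals of the strongest peaks at tba-1 (I:9787464-9788390), tba-2 (I:12966161-12967196), tbb-1 (III:10742287-10742840), mec-12 (III:3139216-3139523) and tbb-6 (V:12261168-12261885) nevertheless ran into the gene. That at tbb-2 (III:4017916-4018792) did not.

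Of 7 further tubulin genes, 4 had an optimal peak, against the same 30.5% of protein-coding genes. The strongest was at ben-1, the beta tubulin targeted by benzimidazole drugs, 666 bp upstream with a signal of 786 (rank 907) and a relative signal of 2.57 ± 0.302 (SD, n = 2). The gene of gamma tubulin, tbg-1, whose product nucleates microtubules, had a signal of 732 (rank 986), 844 bp upstream and nearer to rpac-19. The alpha tubulin tba-5 had 711 (rank 1027), 4690 bp upstream and nearest to cyp-36A1, and tba-7 had 350 (rank 2497), 40 bp upstream. All 4 were below the lowest of the 4 general tubulins with a peak, 1262. The alpha tubulins tba-6, tba-8 and tba-9 had none with 5 kb upstream. With 10 kb, tba-8 and tba-9 gained a peak and the count was 6 of 7, against 39.5% of protein-coding genes. It was 3 with 2 kb (against 23.3%) and 3 with the promoter alone (against 14.9%). The median window of these 7 genes was 8470 bp. In a list of 43 annotated genes for microtubule assembly, severing, binding and modification, 26 had an optimal peak in the window and 15 in the promoter, against 30.5% and 14.9% of protein-coding genes. The median of their strongest signals was 405, against 425 for all genes with a peak. The windows of the 43 genes were longer, with a median of 8921 bp against 7027 bp for protein-coding genes. For the majority of the 26, the strongest summit was nearest to the 5′ end of another gene, so it cannot be assigned to the pathway gene by distance.

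The strongest peak of this list was at zyg-9, which encodes a microtubule polymerase of the XMAP215 family, 191 bp upstream with a signal of 3223 (rank 73) and a relative signal of 10.4 ± 0.756 (SD, n = 2). The summit in the window of cls-2, a CLASP protein that stabilizes microtubules, had 2569 (rank 113), but lay 3577 bp upstream and nearest to ikke-1. The tubulin folding cofactor A gene tbca-1 had 2328 (rank 135), 216 bp upstream. The alpha tubulin acetyltransferase gene atat-2 had 2248 (rank 143), 1549 bp upstream. Weaker summits were present for the folding cofactor gene tbcc-1 (1021, rank 594, nearest to Y71H2AM.20), the severing enzyme gene spas-1 (989, rank 630, 153 bp upstream), evl-20 (638, rank 1192, nearest to eif-3.G), whose product acts in tubulin folding, and the dynein regulator lis-1 (637, rank 1199, 235 bp downstream of the 5′ end). All of them were below the strongest peaks of tbb-2, tbb-6 and tba-2.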

How the data were processed

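The 9 genes, their classes, the further lists and the sequences searched were chosen with earlier results of these data known. The authors deposited narrowPeak lists on ce11 that give a signal value and a −log10 q-value per peak, with each list derived from the alignments and 1 control, per the file headers and accompanying text. The −log10 q-value deposited by the authors is capped at 1 highest value per list (3.88 in the pooled list). The peak caller, its version and the IDR threshold are not given in the sources used here. Lists on ce10 were not used. The optimal list equalled the top 5982 pooled peaks, as tested on the lists.

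Summits were placed against Ensembl release 115 genes on WBcel235, the same sequence as ce11. All 6 chromosomes had their last peak within their length. Sequences came from the RefSeq copy of WBcel235. Proteins were translated from annotated coding sequences, instead of taken from RefSeq as planned, and aligned globally (Biopython 1.88, BLOSUM, gap opening −10, extension −0.5). Relative signal was compared as mean ± SD over 2 replicates, whose spread may be partly technical. The labels name 2 biological replicates but do not describe separate cultures. No test was run. Python 3.11.15 with pandas 2.3.3 was used, and the window, matching and sequence counts were tested on simulated data. Genes named were the 9, further tubulins with an optimal peak, the 8 pathway genes with the highest signal, and genes whose promoter or body held a tubulin summit. Other neighbours named (memb-1, ikke-1, Y71H2AM.20, eif-3.G, cyp-36A1 and rpac-19) are the nearest 5′ ends. Of 44 pathway genes listed, hdac-6 was not matched to the annotation. Alternatives were windows of 2 and 10 kb, the promoter alone, interval overlap, the strongest 50% of peaks, summit matching within 50 or 200 bp, each replicate alone, the pooled list, and 100 bp for sequences.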

Additional observations from a re-analysis of the deposited data

How the results depend on the processing

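Of 86 values recomputed under an alternative, 74 stayed within the limits set and 12 moved. The limit was 1.5 times for a count and 1 SD between replicates for relative signal. Some of the 74 could not have moved. With 2 replicates, leaving out 1 always shifts the mean by less than 1 SD. At mec-12 the value without replicate 3 is the main value itself. Counts of 6 of 9 tubulins and 4 of 5 general tubulins could fall but not rise beyond the limit. At mec-12, with 1 replicate and no SD, any difference was taken as a move. The 6 tubulin genes with an optimal peak were the same 6 under each other definition of a peak in the window, while the share of all protein-coding genes changed with it. That share was 23.3% with 2 kb, 39.5% with 10 kb, 14.9% with promoters, 31.8% with interval overlap and 20.6% with the strongest 50% of peaks, against 30.5%. With each replicate left out in turn, the count of neuron-specific tubulins with a peak ranged from 1 (tbb-4, without replicate 7) to 2 (mec-12 and tbb-4, without replicate 3), and it was 0 with peaks among the top of both replicates, chosen after seeing the data. All tubulins ranged from 6 to 8 in the same way and general tubulins from 4 to 5. The tbb-4 summits in these counts were nearest to memb-1 in both replicates. With promoters alone, 15 pathway genes and 2980 protein-coding genes had a peak. Relative signal at tbb-1 was 3.75 with matching within 50 bp and 4.23 in the pooled list, against 3.98, and at mec-12 it was 2.07 within 50 bp, 2.24 within 200 bp and 1.81 in the pooled list, against 2.25. Leaving out a replicate gave 3.84 to 4.12 at tbb-1, 5.10 to 7.57 at tba-1, 13.2 to 16.2 at tba-2, 30.2 to 33.7 at tbb-2 and 12.4 to 19.0 at tbb-6, and mec-12 had a value in replicate 7 alone. With 100 bp on each side, 1 of the 14 windows held the E-box, 2 held GATA and 1 held AGACGCAG, against 8.86%, 28.0% and 10.2% of all optimal windows. The cause of these shifts was not tested.

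No paired analysis was possible because the series holds 1 group and no test. The lists limit what can be said: they give no read counts, replicates differ in what they list, and a window without an entry has no measured signal. With 2 replicates an SD is itself imprecise.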
